A study of Mus musculus with 6 samples.

Results

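The trefoil factors are 3 small secreted peptides, Tff1, Tff2 and Tff3, and their transcripts were measured in pancreatic islets of non-pregnant and pregnant mice. The members were all probe sets whose single gene symbol in the platform annotation is one of these 3 names. This gave 3 probe sets, 1 for each gene, among 18193 genes with a single symbol on the array. The set was selected on measured values: an earlier comparison of the same pregnant and non-pregnant signals had placed Tff2 among the largest falls. The pregnant and non-pregnant levels of the members are therefore a description, and no test of them is used as support.

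Trefoil factors carry a compact looped domain held by disulfide bonds, and they are secreted with mucins onto the linings of the gut. They protect the epithelium and help it to close over wounds. Tff1 is known from the surface mucous cells of the stomach and, in human breast cancer cells, as an estrogen-induced gene. Tff2, also called spasmolytic polypeptide, is a product of gastric neck and duodenal gland cells and is also found in the exocrine pancreas. Tff3, the intestinal trefoil factor, is a product of goblet cells.

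Islets are the clusters of hormone-secreting cells in the pancreas, and here they were freed by collagenase digestion, which can leave exocrine tissue attached. The control group held islets of mice that were not pregnant (time 0 in days post coitum, dpc), on 3 arrays, and the other group islets of pregnant mice at 12.5 dpc, also on 3. The labels give no strain, age or number of animals and do not call the arrays of a group separate animals, so errors and p-values cover only the spread among these arrays, and that spread may be technical. Each array gave 1 MAS5 signal per probe set, a background-corrected intensity scaled so that every array had the same 2% trimmed mean of 500.003. The median signal lay between 86.1 and 100.3, the 3 probe sets of a bacterial control transcript gave 1.1 to 32.3, and the number of arrays limits the precision.

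The 3 genes lie next to each other on mouse chromosome 17 in the GRCm38.p6 build of the RefSeq gene table. Tff3 spans chr17:31125306-31129611, Tff2 chr17:31141062-31144282 and Tff1 chr17:31161395-31165060. The cluster is 39.8 kb long, with 11.5 kb between Tff3 and Tff2 and 17.1 kb between Tff2 and Tff1, and holds 0 other protein-coding genes.

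Tff2 was the member that differed most between the groups. In the order of replicates 1, 2 and 3, its signals were 1520.7, 854.6 and 2928.8 on the non-pregnant and 295.1, 457.2 and 622.7 on the pregnant arrays. The groups did not overlap, since the lowest non-pregnant array stood above the highest pregnant one. The spread within each group was wide, however, with non-pregnant replicate 3 far above the other 2 arrays of its group. The mean went from 1768 ± 1059 (SD, n = 3) to 458.3 ± 163.8 (SD, n = 3), which is 3.86 times lower. On the scale used for all differences, log2(signal + 16), this was a log2 difference of -1.80 ± 0.35 (limma SE), pregnant minus non-pregnant. Of 27022 probe sets bright enough to be tested, 8 had a more negative log2 difference.

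Tff1 was present at a like level on all arrays. Its signals were 685.6, 866.7 and 827.8 on the non-pregnant arrays in the same order, and 659.2, 511.9 and 652.7 on the pregnant arrays. These groups did not overlap either, but pregnant replicates 1 and 3 came close to non-pregnant replicate 1. The mean went from 793.4 ± 95.3 to 607.9 ± 83.2 (SD, n = 3 each), with a ratio of 1.31 and -0.38 ± 0.13 as the log2 difference.

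Tff3 was dim. Its signals were 103.5, 18.0 and 57.9 on the non-pregnant and 31.4, 46.4 and 49.5 on the pregnant arrays, so all pregnant values lay within the non-pregnant range. Non-pregnant replicate 2 and pregnant replicate 1 were inside the range of the bacterial controls. The means were 59.8 ± 42.8 and 42.4 ± 9.68 (SD, n = 3 each), with a log2 difference of -0.21. Its mean log2 value was below the level at which probe sets were tested, which corresponds to a signal of 50.5, so there is no fitted error. Without non-pregnant replicate 1 the log2 difference was 0.21.

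**Figure D1:**
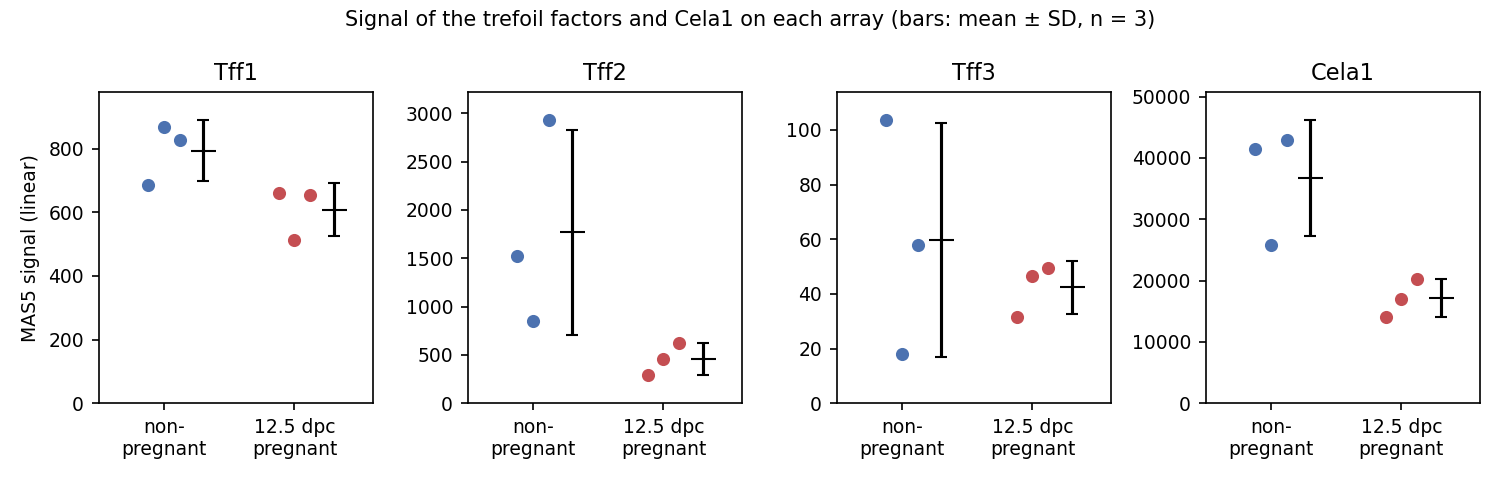
Linear MAS5 signal of Tff1, Tff2, Tff3 and the acinar elastase Cela1 in non-pregnant (blue) and 12.5 dpc pregnant (red) islets, each panel on its own axis from 0. Points are single arrays in the order of replicates 1, 2 and 3, and black bars give the mean ± SD (n = 3). Tff2 and Cela1 are lower on all pregnant arrays, Tff1 differs by a ratio of 1.31 and the Tff3 groups overlap.

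Of the 2 members tested in the fit, 1 (Tff2) passed the threshold of an adjusted p of 0.05, lower in pregnancy, and Tff1 did not. The members were selected on these same signals, so these calls are a description and no support. Over all probe sets tested, 4.78% were called lower, 4.79% higher and 9.57% in either direction. Groups that did not overlap, as in Tff1 and Tff2, were found in 27.7% of all probe sets tested. The split between 1294 higher and 1293 lower calls was 1430 and 583 when arrays were centred on their medians. Tff2 was not called when the variance was fitted without its trend on signal (adjusted p = 0.12 in limma) or with robust eBayes (0.16), and Tff1 was called without non-pregnant replicate 1 (0.047).

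Cela1, the chymotrypsin-like elastase secreted by acinar cells, served as the exocrine comparator on each array. Acinar cells are the enzyme-producing exocrine cells that surround islets. The Cela1 signals were 41421, 25869 and 42855 on the non-pregnant and 14039, 17028 and 20240 on the pregnant arrays, in the order of replicates used above. As for Tff2, non-pregnant replicate 2 was the lowest and replicate 3 the highest of its group, and pregnant replicate 1 was the lowest and replicate 3 the highest of the other. The mean went from 36715 ± 9420 to 17102 ± 3101 (SD, n = 3 each), 2.15 times lower (log2 difference -1.08 ± 0.17). In bulk islet RNA, fewer acinar cells and less RNA per acinar cell cannot be told apart.

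The same comparison was made per array, with each gene's log2 value taken as its deviation from its own mean over the 6 arrays. Relative to Cela1, Tff2 stood at 0.11, -0.03 and 1.00 on the non-pregnant and at -0.64, -0.31 and -0.13 on the pregnant arrays. Thus the relative value of Tff2 was below 0 on all pregnant arrays, while on the non-pregnant arrays only replicate 3 stood clearly above 0. As the values are centred over all 6 arrays, the high non-pregnant replicate 3 itself lowers those of the other arrays. The log2 difference of Tff2 was lower than that of Cela1 by -0.71, beside within-group SDs of that relative value of 0.56 and 0.26. Without non-pregnant replicate 3 it was -0.39.

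The relative values of Tff1 were -0.76, 0.25 and -0.54 on the non-pregnant and 0.74, 0.11 and 0.20 on the pregnant arrays. Those of Tff3 were 0.19, -0.94 and -0.55 on the non-pregnant and 0.42, 0.53 and 0.36 on the pregnant arrays. The log2 difference of Tff1 was thus above that of Cela1 by 0.70. For Tff3 it was above by 0.87, beside within-group SDs of that relative value of 0.58 and 0.09. Tff3 was near the control range on some arrays of both groups, where the log2 scale understates a fall. Its relative values therefore do not place it above Cela1.

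Cela1 is among the brightest probe sets, with signals up to 42855 where the highest signal of an array was 51107 to 64109. All 11 tested acinar markers with a mean signal above 10000 were called lower, with log2 differences of -1.42 to -0.57 (median -1.02). The 15 tested markers below that signal had -1.87 to 1.18 (median -1.43), with 9 called lower and 1 higher. Tff2, at a mean below that signal too, had -1.80. Whether the brightness of Cela1 contributes to its difference from Tff2 was not tested.

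Over the whole list of acinar markers, 20 of 26 genes tested were called lower and 1 higher, with a median log2 difference of -1.13. Over all 12914 genes tested, 5.79% were called lower, 6.1% higher and 11.9% in either direction, and the median was -0.036. The 28 acinar markers on the array summed to a signal of 211326 to 400611 on the non-pregnant arrays and of 124991 to 202645 on the pregnant ones, without overlap. Rbpjl, a subunit of the acinar transcription factor complex PTF1, was at 7.5 to 31.0 and so near the control level on all arrays. Bhlha15, which drives the secretory machinery of acinar cells, was the marker called higher (1.18 ± 0.09, limma adjusted p = 8.6e-06). Pnliprp2, a pancreatic lipase-related protein (-1.74 ± 0.30), and the tissue kallikrein Klk1 (-1.61 ± 0.31) were among the members called lower with the smallest p. The list gave 8 lower calls without pregnant replicate 1, 1 under robust eBayes and 0 with no variance trend. Among these 26 markers, 1 (Gp2) had a more negative log2 difference than Tff2, and 22 lay between Tff2 and Tff1.

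**Figure D2:**
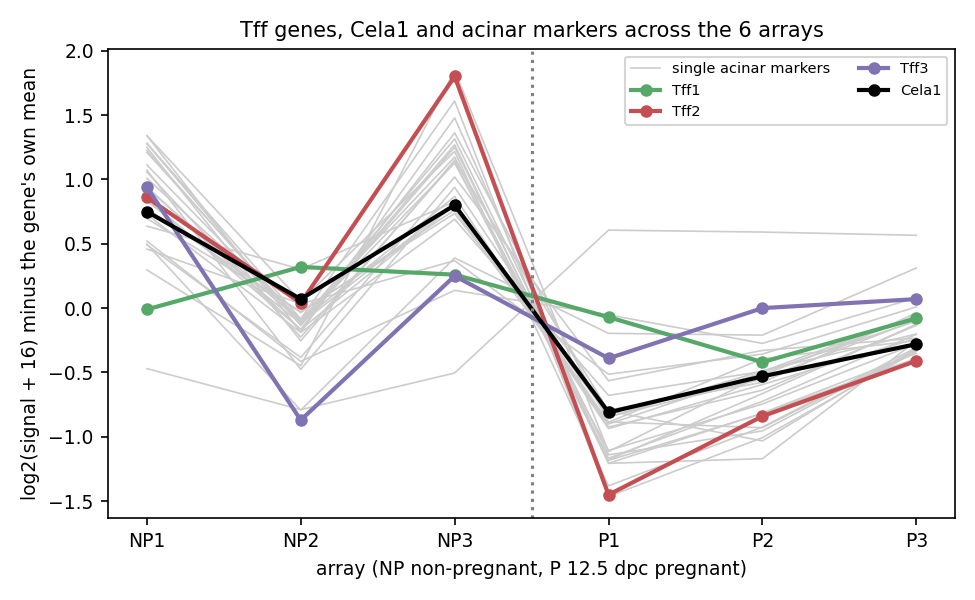
Log2(signal + 16) of each gene minus its own mean over the 6 arrays, for Tff1, Tff2, Tff3, Cela1 and the 26 tested acinar markers (grey). Lines only join the values of 1 gene, since replicates have no order, and the dotted line separates non-pregnant (NP) from pregnant (P) arrays. Tff2 runs with the acinar markers at the edge of their spread, from 1.80 on NP3 to -1.45 on P1, and Tff1 stays between -0.42 and 0.32.

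A measure that does not use the difference between the groups is the deviation of each array from the mean of its own group. For Tff2 these deviations were -0.04, -0.86 and 0.90 on the non-pregnant and -0.55, 0.06 and 0.49 on the pregnant arrays, in log2 units. For Cela1 they were 0.21, -0.47 and 0.26, and -0.27, 0.01 and 0.26. Tff2 thus had its lowest and highest array in both groups where Cela1 had them, with larger deviations on those 4 arrays. For Tff1 they were -0.20, 0.13 and 0.07, and 0.12, -0.23 and 0.11, with another array at the lowest and the highest place in each group.

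The order of arrays that Tff2 and Cela1 shared within both groups was found in 729 of 27022 probe sets tested (2.7%) and in 11 of the 25 other acinar markers (44%). In all 26 acinar markers non-pregnant replicate 2 was the lowest of its group, as in Tff2 and Tff3 but not in Tff1.

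The spread of Tff2 within a group was wide for a gene of its brightness. Its range over the 3 arrays was 1.76 in the non-pregnant and 1.04 in the pregnant group, on the log2 scale. Among the 1000 probe sets nearest to it in mean log2 value, 100% and 99.9% had a smaller range in these groups. For Cela1 the shares were 97.8% and 96.9%, and for Tff1, with ranges of 0.33 and 0.36, they were 73.3% and 81.6%. The range of Tff3 was 1.81 in the non-pregnant group, wider than in 91.1% of probe sets of like level, and 0.47 in the pregnant group, wider than in 23.8%.

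The genes most like Tff2 were sought over all 6 arrays by the root mean square difference between gene-centred log2 values, among the other 12913 genes tested. The nearest was Gp2, the major membrane glycoprotein of zymogen granules, at 0.209, with signals of 2480.4, 953.0 and 3117.6 on the non-pregnant and 356.2, 495.3 and 797.9 on the pregnant arrays. Next came Cckar, the cholecystokinin receptor through which acinar secretion is stimulated (0.26), Klk1 (0.285), the lipase-related protein Pnliprp1 (0.289) and Clps, the colipase of pancreatic lipase (0.306). Cela1 stood at rank 21 with 0.504. Of the 100 nearest genes, 22 were among the 26 acinar markers. This likeness rests in part on the difference between the groups, and also on how widely a gene varied. Cckar was dim (27.0 to 246.6) and was not called without non-pregnant replicates 1 or 3 or pregnant replicates 1 or 2 (limma adjusted p = 0.096 to 0.15).

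With each group's own mean removed, so that the difference between groups plays no part, 21 of the 100 genes nearest to Tff2 were acinar markers, which make up 0.201% of all genes compared. Cela1 then stood at rank 90. For Tff1 the same count was 0 of 100, with Cela1 at rank 11801. The root mean square difference also depends on the size of the deviations, not on their pattern alone. The small deviations of Tff1 can by themselves set it far from the acinar markers. Those of Tff2, which were wide, can set it near other wide-ranging genes. The points share the 6 arrays and their scaling, and the counts are a description.

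The nearest genes to Tff1 over all 6 arrays were Zfand4 (0.042), Slc41a3, a magnesium transporter (0.049), Zfp612 (0.05), Crtc2, a coactivator of CREB (0.053), and Inhbb, a subunit of the activins and inhibins (0.055). None of these 5 was called, and 0 of the 100 genes nearest to Tff1 were acinar markers. Cela1 stood at rank 11850, and here too the small size of the Tff1 deviations plays a part.

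With the log2 value of Cela1 on each array as a covariate, the log2 difference of Tff2 between the groups was 0.28 ± 0.37 (limma SE; adjusted p = 0.84), and that of Tff1 was -0.59 ± 0.28 (adjusted p = 0.42). Cela1 itself differed between the groups without overlap, so the covariate takes up a part of the contrast, and 3 residual degrees of freedom remained. Over all probe sets this fit called 178 higher and 69 lower.

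The list of partners and receptors held genes that are known or proposed to bind trefoil factors or to act with them. Of 9 tested, 0 were called higher and 1 lower, with a median of -0.25, and the other 5 on the array were too dim to be tested. Ackr3, the atypical receptor of the chemokine Cxcl12, had signals of 556.5, 482.7 and 631.8 on the non-pregnant and 302.5, 473.8 and 244.5 on the pregnant arrays. Its groups did not overlap, though pregnant replicate 2 came close to non-pregnant replicate 2. It was called lower (-0.73 ± 0.20, limma adjusted p = 0.040), but in 8 of 18 alternatives only. The call was lost without non-pregnant replicates 1 or 3 and without pregnant replicates 1 or 3 (adjusted p = 0.092 to 0.13).

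Cxcr4, a chemokine receptor proposed to signal for Tff2, was low on all arrays, at 69.5, 71.6 and 71.4 without and 83.4, 110.1 and 72.9 with pregnancy (0.26 ± 0.26, limma adjusted p = 0.63). Its ligand gene Cxcl12 had -0.55 ± 0.21 (adjusted p = 0.12). Lingo2, proposed as a receptor for Tff3, was at 0.7 to 35.1 and close to the range of the bacterial controls. Its relative Lingo3 had -0.68 ± 0.30 (adjusted p = 0.19), the receptor Egfr -0.21 ± 0.13 (0.36) and the integrin subunit Itgb1 -0.05 ± 0.15 (0.91).

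Dmbt1 is a scavenger receptor protein that binds trefoil factors and is also a product of exocrine tissue. It resembled Tff2 in its order of arrays on the pregnant side but not on the non-pregnant side. Its signals were 3387.6, 1292.5 and 3224.1 on the non-pregnant and 902.1, 1158.1 and 1626.6 on the pregnant arrays, which overlapped. The log2 difference was -1.01 ± 0.30 (limma adjusted p = 0.058). It was called lower without non-pregnant replicate 2 (-1.46, adjusted p = 0.00053), without pregnant replicate 3, with array weights, with the replicate block and with the top 40% filter. With the Cela1 covariate it was called higher (0.94, adjusted p = 0.035).

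Several mucins and gastric partners with which trefoil factors are secreted in the gut were at or near the control level. Muc6, also on these lists, had no probe set with a single symbol and so no value here. Among the genes above that level were Gkn3 (70.4 to 160.8) and Muc4 (819.9 to 1220.6), neither of them called. Muc2, the gel-forming mucin of goblet cells, was at 3.4 to 10.3, Muc5ac, that of the gastric surface, at 8.6 to 28.1, and the gastric peptides Gkn1 and Gkn2, of which Gkn2 binds Tff1, at 3.5 to 35.3 and 14.1 to 46.7. The goblet cell factor Spdef was at 7.8 to 16.4. In the list of mucins and goblet cell genes 14 of 21 were too dim to be tested. Beside 5.79% of all genes tested called lower, of the other 7 none was called higher and 1 lower, with a median of -0.11. That 1 gene was Zg16 (-1.28 ± 0.28, limma adjusted p = 0.013), a secreted lectin named after pancreatic zymogen granules, at 21812, 8641 and 19710 on the non-pregnant and 4939, 6319 and 8242 on the pregnant arrays. Its order of arrays was that of Cela1 within the pregnant group but not within the non-pregnant group. It was not called without pregnant replicate 1 (adjusted p = 0.068), under robust eBayes (0.21) or with no variance trend (0.15).

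Muc1, a membrane mucin of duct and other epithelia, was below the filter but had 84.3, 46.1 and 103.4 on the non-pregnant and 8.9, 23.3 and 8.5 on the pregnant arrays, the latter within the control range. It is named after its values were seen. In the gastric list 9 of 13 genes were too dim. Among the 4 tested limma called 0 in either direction, where 11.9% of all genes tested were called. In this list 1 gene (Atp4a) was at an unadjusted p under 0.05, and the median was -0.04. Atp4a, the catalytic subunit of the proton pump, had -0.33 ± 0.14 (adjusted p = 0.18).

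Among 13 tested genes of a list of known and proposed regulators of trefoil genes, 2 were called higher (Esr1 and Pparg) and 2 lower (Klf5 and Foxa2), with a median of -0.12. With the top 40% filter 0 genes of this list were called higher, since neither Esr1 nor Pparg was bright enough to be tested there. With averaged probe sets 1 was called higher and 1 lower. Esr1, the estrogen receptor alpha, which induces TFF1 in human breast cancer cells, was at 8.2, 11.8 and 26.3 on the non-pregnant and 274.4, 235.9 and 253.3 on the pregnant arrays. The non-pregnant arrays were within the control range, so Esr1 entered the test only through its pregnant arrays. Their geometric mean was 7.87 times the highest control signal, 32.3. As the non-pregnant signals lay below 32.3, that ratio is a lower bound for the rise. The fitted log2 difference was 2.01 to 4.11 over the alternatives, and Esr1 was not tested with the top 40% filter or with averaged probe sets. Its part in the Tff1 values was not tested. Pparg, a nuclear receptor, rose by 0.93 ± 0.25 (adjusted p = 0.035), a call lost without non-pregnant replicates 2 or 3 and without pregnant replicates 1 or 2 (adjusted p = 0.091 to 0.14), and with no filter or no variance trend (0.095 in both).

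Klf5, a zinc finger factor of gut epithelium, was at 1772.5, 2129.6 and 1814.5 on the non-pregnant and 1174.0, 1176.7 and 1162.9 on the pregnant arrays. It fell by 0.69 ± 0.09 (limma adjusted p = 0.00034), but had -0.17 with its probe sets averaged (adjusted p = 0.42). The forkhead factor Foxa2 fell by 0.29 ± 0.08 (adjusted p = 0.029), which did not hold with median centring (adjusted p = 0.22) or without non-pregnant replicates 1 or 2 or pregnant replicates 1 or 3 (0.054 to 0.11), and was called in 10 of 18 alternatives. Gata6 (-0.30 ± 0.10, adjusted p = 0.083), Hnf4a (-0.31 ± 0.13, 0.16), Stat3 (0.11 ± 0.09, 0.53) and Elf3 (0.15 ± 0.14, 0.58) did not pass. Foxa1, Gata4, Cdx1, Cdx2, Sox2 and Spdef were too dim to be tested.

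Other genes known to respond to estrogen gave no common direction. Of 10 tested, 2 were called higher (Esr1 and the cyclin Ccnd1, 0.39 ± 0.08, limma adjusted p = 0.0070) and 1 lower (the growth factor binding protein Igfbp4, -0.63 ± 0.15, 0.020), with a median of -0.06. The higher count rests in part on Esr1, which passed the filter through its pregnant arrays alone, and was 1 with the top 40% filter, with averaged probe sets and with no variance trend, where Ccnd1 was not called (0.12). Igfbp4 had -0.36 with its probe sets averaged (adjusted p = 0.25), and was not called without non-pregnant replicates 2 or 3 or any of the 3 pregnant replicates (0.052 to 0.075). Greb1, an estrogen target of breast cancer cells, was at 3.3 to 42.7 and Pgr, the progesterone receptor, at 6.2 to 63.4.

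**Figure D3:**
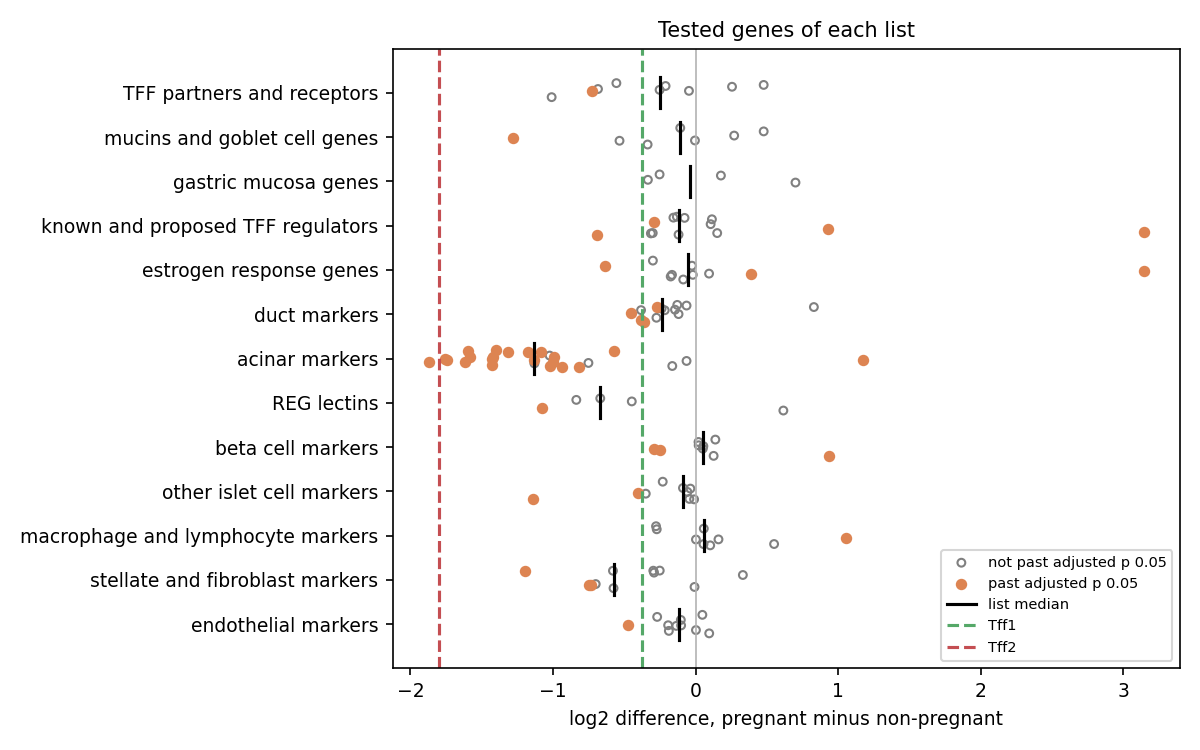
Log2 difference, pregnant minus non-pregnant, of every tested gene in each list, with called genes filled and the black bar at the list median. Dashed lines mark Tff1 at -0.38 and Tff2 at -1.80. Tff2 lies at the lower edge of the acinar markers (median -1.13), outside the values of all other lists.

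Duct cells, which line the exocrine ducts, are another cell type that an islet preparation can hold. Of 13 duct markers tested 0 were called higher and 4 lower, with a median of -0.24, where 5.79% of all genes tested were called lower. These were Clu, clusterin (-0.38 ± 0.06, limma adjusted p = 0.0029), the keratin Krt7 (-0.27 ± 0.06, 0.016), the tetraspanin Tspan8 (-0.45 ± 0.11, 0.024) and the RNA-binding protein Bicc1 (-0.36 ± 0.10, 0.033). With median centring or without the variance trend 0 were called lower, without pregnant replicate 1 it was 1, and without non-pregnant replicate 3 or pregnant replicate 2 it was 2. Bicc1 was not called with any 1 array left out (0.058 to 0.13), Krt7 not without non-pregnant replicate 2 or pregnant replicates 1 or 2 (0.053 to 0.080), and Tspan8 not without non-pregnant replicate 3 or pregnant replicate 1 (0.077 and 0.11). Of the 13 tested, 12 had a negative log2 difference. The keratin Krt19, at 13.3 to 102.5, went the other way (0.83 ± 0.41, limma adjusted p = 0.26), and Sox9 had -0.12 ± 0.31 (0.87). The levels of the duct markers varied: Cftr (1.5 to 36.8) and Onecut1 (9.1 to 46.1) were near the control range. Krt7 (4504 to 5701) and Prom1 (4994 to 6800) were bright on all arrays. Duct signals summed to 29632 to 31618 on the non-pregnant arrays and to 23812 to 25220 on the pregnant ones, and its part in the Tff1 and Tff2 values was not tested.

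The REG lectins are secreted proteins that acinar cells make in injury. Beside 5.79% of all genes tested called lower, they gave 0 higher and 1 lower of 5 tested (median -0.67). That was Reg3d (-1.08 ± 0.30, limma adjusted p = 0.040), which was lost without non-pregnant replicates 1 or 3 and without pregnant replicates 1 or 2 (0.13 to 0.16), and was called in 8 of 18 alternatives. Reg3b had 609.9, 288.8 and 759.3 on the non-pregnant and 260.8, 665.9 and 2802.3 on the pregnant arrays, so that its highest array was pregnant replicate 3. Reg3b was not called (0.62 ± 0.62, limma adjusted p = 0.62). Within the pregnant group Tff2 had the same order of arrays, with its highest signal, 622.7, on replicate 3 too. Any part of the REG lectins in the Tff2 values was not tested.

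Defining islet transcripts were bright: the islet amyloid gene Iapp was at 47044 to 51191 and glucagon, Gcg, at 44756 to 49732 on all arrays. In both groups these lay near the highest signal of an array. Of 9 beta cell markers 1 was called higher (Pcsk1) and 2 lower (Slc2a2 and Slc30a8), with a median of 0.05, and of 9 other islet cell markers 0 and 2 (Ghrl and Irx1; median -0.09). With median centring neither Slc2a2 (adjusted p = 0.24) nor Slc30a8 (0.13) was called, nor without the variance trend (0.15 and 0.16), and Irx1 was called in 8 of 18 alternatives. Macrophage and lymphocyte markers had 1 higher (C1qa) and 0 lower of 9 (median 0.06). Stellate and fibroblast markers had 0 higher and 3 lower of 11 (Dcn, Col3a1 and Col1a2; median -0.58), and endothelial markers 0 and 1 of 10 (Flt1; median -0.12). With averaged probe sets 1 stellate marker (Col3a1) and 0 endothelial markers were called lower, since Col1a2 had -0.20 (adjusted p = 0.54), Dcn -0.78 (0.065) and Flt1 -0.35 (0.056). Stellate signals summed to 14993 to 15426 on the non-pregnant arrays and to 10457 to 13447 on the pregnant ones, without overlap. The part of stellate cells in the Tff2 values was not tested.

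Of the nearest genes on each side of the trefoil cluster, Abcg1, Glp1r, Rsph1, Slc37a1 and Dnah8 were bright enough to be tested. None of them was called lower, where 5.79% of all genes tested were. With so few genes tested, this cannot show whether the region around the cluster was unchanged. Abcg1, a sterol transporter that ends 7.32 kb before Tff3, had signals of 1987.0, 2208.7 and 2393.1 on the non-pregnant and 1999.9, 1774.7 and 2267.1 on the pregnant arrays (-0.13 ± 0.10, limma adjusted p = 0.50). On the other side, the protease gene Tmprss3, 14.2 kb after Tff1, was at 21.3 to 61.0, and Ubash3a, a lymphocyte gene 42.8 kb away, at 10.4 to 66.7. Both were too dim to be tested.

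Farther out, Glp1r, the incretin receptor of beta cells, 189 kb before the cluster, had 0.17 ± 0.12 (limma adjusted p = 0.45). Umodl1 at 115 kb was too dim. Rsph1, a radial spoke protein of cilia (0.48 ± 0.17, adjusted p = 0.096), and the sugar phosphate transporter Slc37a1 (0.04 ± 0.10, 0.86) did not pass. The 1 neighbour called was Dnah8, a dynein heavy chain of motile cilia 250 kb away, at 89.7, 91.9 and 71.7 on the non-pregnant and 419.7, 413.5 and 436.0 on the pregnant arrays. It rose by 2.13 ± 0.17 (adjusted p = 9.3e-06) and was called in 18 of 18 alternatives.

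**Figure D4:**
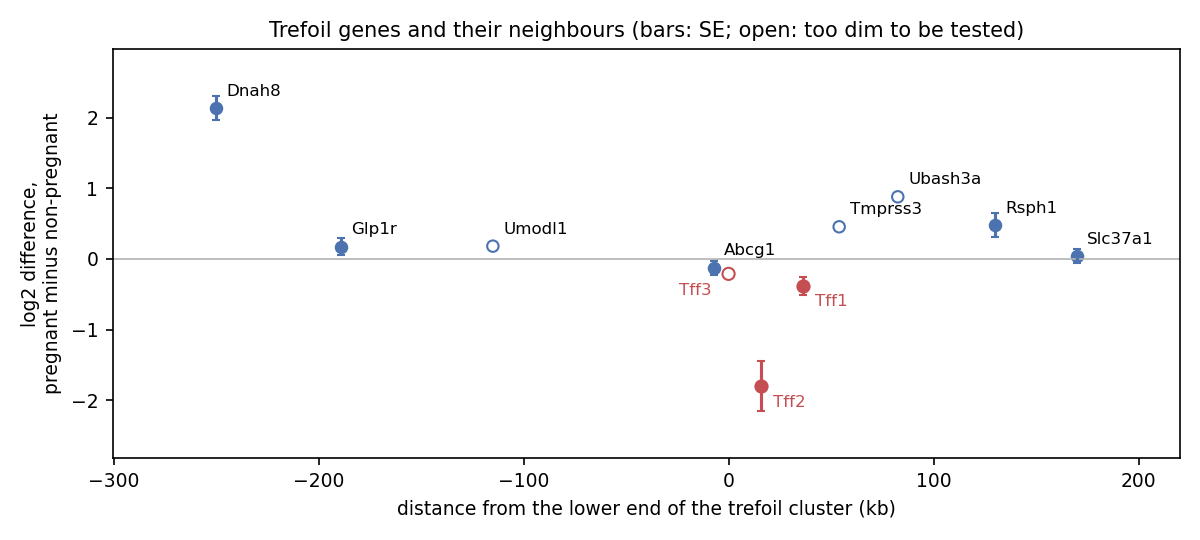
Log2 difference, pregnant minus non-pregnant, of the trefoil genes (red) and the 4 nearest protein-coding genes on each side (blue), against distance in kb from the lower end of the cluster. Bars are limma standard errors, and open symbols mark genes too dim to be tested. Tff2 at -1.80 lies between Tff3 and Tff1, and Dnah8, 250 kb away, is the 1 neighbour called.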

How the data were processed

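The authors deposited 1 table of linear intensities, which the submitters' processing notes name as MAS5. The sources used here give neither its version nor its settings, and detection calls were not used here. Total RNA was labelled as biotinylated cRNA with an Affymetrix kit, per the labels' protocols. Of 45101 probe sets 64 controls were left out. Values were log2(signal + 16), with a pseudocount of 16 and no further normalization, and tests covered the top 60% of probe sets by mean log2 value. Differences understate the change of dim genes.

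The comparison used limma 3.58.1 in R 4.3.3, with eBayes and a variance trend, 2-sided, no covariate and 4 residual degrees of freedom, and Benjamini-Hochberg adjusted p under 0.05 over all 27022 probe sets as the threshold. The fit was tested on simulated data. Symbols came from the platform annotation, with 34945 probe sets of 1 symbol, 932 of several and 9160 unnamed here. Of those with 1 symbol, 34741 were found in the RefSeq gene table by Entrez identifier and 0 symbols changed. A gene was represented by its brightest probe set. Some probe sets of acinar enzyme families can bind related transcripts.

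The members and the 13 gene lists (193 genes, 176 on the array, 131 tested) were chosen with earlier results of these data known. Named were the members, Cela1, list genes past the threshold (at most 4 by smallest p), tested partners and regulators, the 4 nearest genes on each side and the 5 nearest profiles. Alternatives were pseudocounts of 1 and 64, quantile normalization, median centring, a top 40% filter or none, robust eBayes and eBayes without trend, array weights, a replicate block, the Cela1 covariate, averaged probe sets and each array left out. Plots came from matplotlib 3.10.9 (Python 3.11.15).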

Additional observations from a re-analysis of the deposited data

How the results depend on the processing

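Since Tff2 was selected on these same signals, its values here are a description and no support. Its log2 difference was below 0 in all alternatives but 1, the Cela1 covariate, where it was 0.28. With any 1 array left out it was -2.23 to -1.35. It was -1.80 without the variance trend and with robust eBayes, where it did not pass. These variance settings, the filters and the replicate block cannot change the log2 difference, so the same value there is no sign of stability. Tff1 was -0.48 to -0.26 with any 1 array left out and -0.59 to -0.26 over all alternatives. Tff3 was -0.70 to 0.21 with any 1 array left out and 1.62 with the Cela1 covariate. Relative to Cela1, leaving out 1 array gave -0.91 to -0.39 for Tff2, 0.50 to 1.00 for Tff1 and 0.62 to 1.18 for Tff3. Against the median of the acinar markers in place of Cela1 they were -0.65, 0.77 and 0.94.

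The counts over all probe sets were 393 higher and 210 lower without the variance trend, and 178 and 69 with the Cela1 covariate. With median centring 583 were lower. With any 1 array left out, 808 to 1282 were higher and 674 to 977 lower. Leaving out pregnant replicate 1 gave 808 higher and 674 lower, leaving out pregnant replicate 2 gave 824 and 753, and the lower count was 858 without pregnant replicate 3. It was 817 without non-pregnant replicate 2. With the replicate number as a block, 1211 were higher and 1145 lower. Tff2 had -1.80, which this block cannot change, since each group holds every number. No pairing of the arrays by number was seen: same-numbered arrays had correlations of -0.066 to 0.028 in their deviations from the group means. Of 6 arrays, 2 correlated best with their own number. With 3 arrays in a group, such correlations cannot exclude shared handling.

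Other genes changed sign with the Cela1 covariate: Dmbt1 0.94, Reg3d 0.54, Cckar 0.53, Zg16 0.52, Gp2 0.48, Clps 0.47, Pnliprp1 0.41, Klk1 0.35, Pnliprp2 0.22, Lingo3 0.06, Tspan8 0.03, Glp1r -0.02, Elf3 -0.03, Slc37a1 -0.09 and Ehf -0.21. Genes that were not called changed sign elsewhere. With averaged probe sets Itgb1 had 0.23, Hnf4a 0.13 (from -0.31) and Ehf -0.06, and with median centring Itgb1 had 0.03. With any 1 array left out Itgb1 ran from -0.23 to 0.07, Ehf from -0.03 to 0.18, Slc37a1 from -0.04 to 0.12 and Sox9 from -0.35 to 0.01. The cause of these changes was not tested. Signals near those of the bacterial controls, as for Tff3, limit what can be said of dim genes.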
